A study of Mus musculus with 49 samples.

Results

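Interferon-stimulated genes are the genes that cells switch on after they sense an interferon. A set of 31 of them was followed by gene symbol through 49 RNA sequencing libraries of mouse frontal cortex, among the 24495 genes of the deposited table, and all 31 were found there. Every mouse had been kept on a high fat diet, and the 5 groups differed in genotype, injection or time on the diet. Conditional human amylin transgenic mice had 4 months of diet and an injection of tamoxifen (10 libraries) or vehicle (10 libraries), with the brain taken 2 months after injection. The mice labelled AKO, for amylin knockout, had 4 months of diet (10 libraries). WT mice had 4 months (10 libraries) or 2 months (9 libraries). The labels do not name the promoter or Cre driver of the transgene, and they give no age, sex, strain, litter or batch. No group of WT mice given tamoxifen is among the samples, so the drug and the induction of the transgene cannot be told apart. The title numbers are not explained, and a p-value here speaks to the spread among libraries, which may be technical.

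Interferons of type I act through the receptor Ifnar1/Ifnar2 and the kinases Jak1 and Tyk2. The signal leads to the complex ISGF3, which holds Stat2 and Irf9, enters the nucleus and binds the interferon-stimulated response element in target promoters. Interferon gamma, the type II interferon, acts through its own receptor and on a different element, the gamma-activated site. The targets include sensors of foreign nucleic acid, the transcription factors that carry the signal, proteins that block virus entry, translation or release, and enzymes that shut the response down. In the brain they are known from viral infection and as a state of microglia, endothelial cells and other cells in inflamed and ageing tissue.

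Promoter sequence was taken from RefSeq (GRCm38.p6), where 23 of the 31 genes had an entry. The core of the interferon-stimulated response element, TTTC followed by any 2 bases and TTTC again, was searched on both strands of the 250 bases before each listed start of a gene. It was found in 12 of the 23 (52.2%), against 3.07% of the 12458 tested genes with an entry and 3.46% of all 27025 genes. The letters TTCNNNGAA of the gamma-activated site, which read the same on both strands, were found in 4 of the 23 (17.4%), namely Bst2, Irf1, Igtp and Ifit2, against 7.01% of tested genes and 8.13% of all genes. Both motifs were found in Bst2 and Igtp, and in 1 of these the matches overlapped. A match is a string of letters and not a measured binding site. The stretches below are from genes with a match that recur in the results that follow. Others that recur there had an entry without a match, among them Irf7, Oasl2, Ifi44, Sp100, Irf1, Ifit2, Ifitm3 and Xaf1. Ifi27, Rtp4, Usp18, Mx1 and Mx2 also recur there and had no entry. Each is written in the direction of its gene, capitals mark the response element match nearest the start, and a match written as GAAA, any 2 bases and GAAA is the same motif read from the other strand.
Ifit3, chr19:34583377-34583446, plus strand: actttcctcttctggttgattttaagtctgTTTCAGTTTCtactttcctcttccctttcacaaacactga
Ifit3b, chr19:34607773-34607842, plus strand: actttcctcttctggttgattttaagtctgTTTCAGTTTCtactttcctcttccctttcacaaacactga
Ifit1, chr19:34640774-34640843, plus strand: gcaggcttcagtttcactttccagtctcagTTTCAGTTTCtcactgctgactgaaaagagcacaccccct
Isg15, chr4:156200845-156200914, minus strand: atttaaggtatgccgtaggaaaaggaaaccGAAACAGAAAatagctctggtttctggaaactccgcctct
Gbp2, chr3:142620574-142620643, plus strand: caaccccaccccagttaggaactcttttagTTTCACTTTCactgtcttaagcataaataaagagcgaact
Gbp3, chr3:142559975-142560043, plus strand: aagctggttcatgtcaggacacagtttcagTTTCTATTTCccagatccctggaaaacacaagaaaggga
Bst2, chr8:71537557-71537626, minus strand: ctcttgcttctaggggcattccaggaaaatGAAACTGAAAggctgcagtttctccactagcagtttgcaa
The stretches of Ifit3 and Ifit3b, neighbouring copies on chromosome 19, were identical over their 70 bases. Isg15 held 3 overlapping matches, at 78, 72 and 66 bases before its start.

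Depth, as reads recovered from the values, was 29.2 to 75.6 M a library (M for 1e+06), with group medians of 37.8 to 47.1 M. Levels are given as log2(normalised reads + 1), the deposited scale, and differences between groups are on that scale. Iapp, the amylin gene, had 596 reads in the libraries labelled AKO, in 10 of 10 of them, 1 read in the vehicle group and 0 in the other groups. These reads run counter to the label, which is therefore used here only as a name, and each direction drawn from these libraries holds as labelled. Markers of excitatory cortical neurons were present in every library, with a mean level of 11.09 to 12.86, and markers of neighbouring olfactory tissue varied widely, with a mean level of 4.90 to 11.39. A single vehicle library, replicate 1, stood far above the other libraries in most of the interferon-stimulated genes and touches every comparison that uses the vehicle group. Differences of the 31 genes that use the vehicle group are given with and without it.

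All 31 genes were detected, but they spanned a wide range of levels. Per kilobase of exon, Ifi27 was the most abundant at 892 normalised reads, followed by Ifitm3 at 497, Ifit3 at 269, Ifit2 at 184 and Stat2 at 170. At the other end lay Ifi44 at 5.75, Mx1 at 3.65 and Zbp1 at 2.43 normalised reads per kilobase. Zbp1 alone had libraries with no read, 3 of 10 in the tamoxifen group, 1 of 10 in the vehicle group and 1 of 10 in WT at 4 months. The genes also varied between libraries of a group more than most genes of like level. Of the 31, 26 had an SD above the median of genes within 0.5 log2 units of them, and 5 lay above the 90th percentile. This SD pools the libraries of all groups, with vehicle replicate 1 among them, and was not computed without that library. In bulk tissue, fewer cells of a type and less RNA per cell cannot be told apart.

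**Figure D1:**
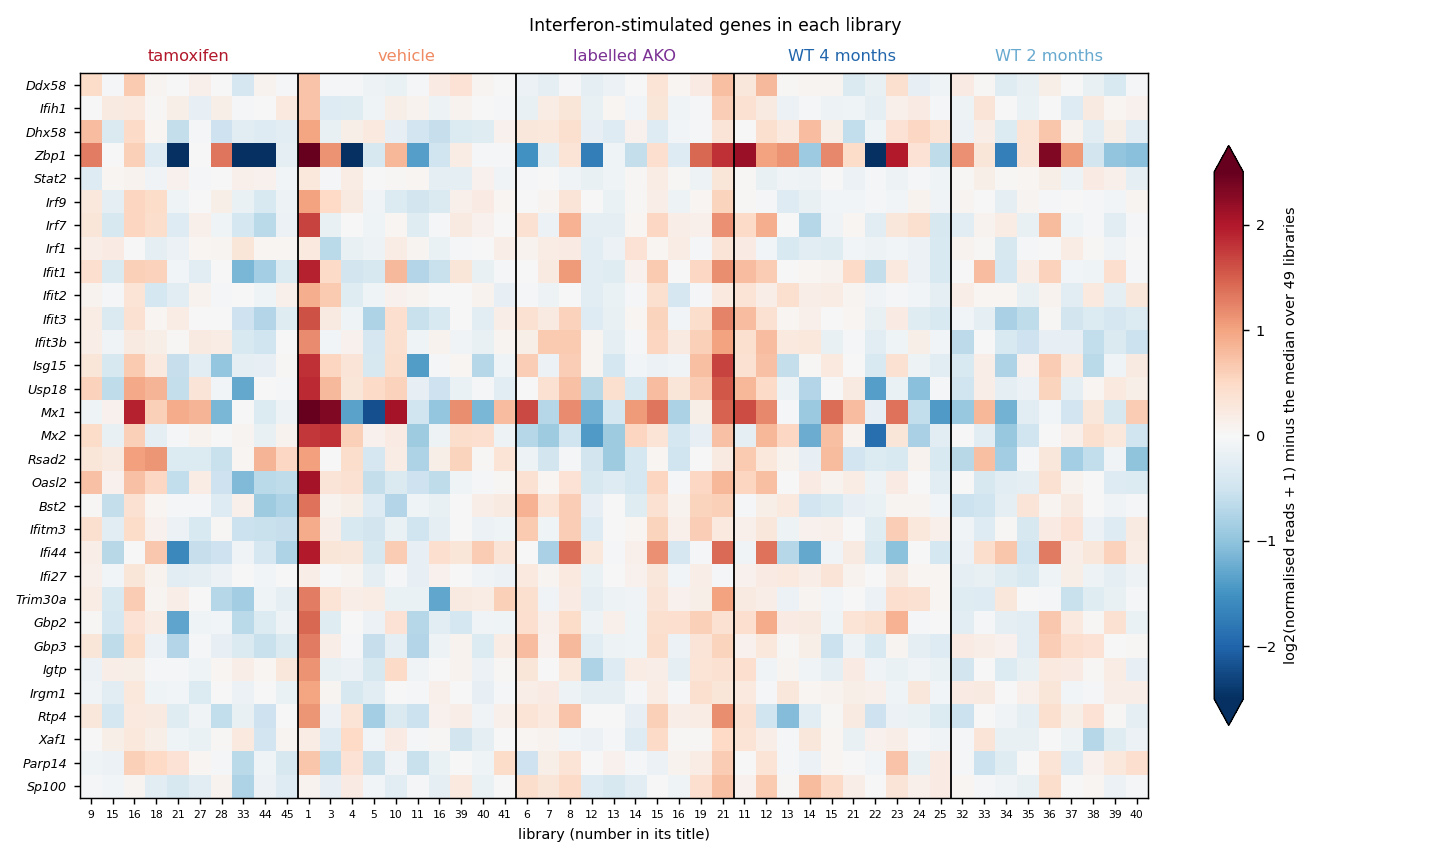
Level of each of the 31 genes (down) in each of the 49 libraries (across, grouped), as log2(normalised reads + 1) minus the median over the 49 libraries; colours stop at 2.5 in either direction. Vehicle replicate 1 is the column in which nearly every gene is high, followed by labelled AKO replicate 21 and tamoxifen replicate 16.

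Among the sensors, Ddx58 (RIG-I) and Ifih1 (MDA5), which detect viral RNA in the cytoplasm, had group medians of 7.44 to 7.54 and 7.99 to 8.10. Dhx58 (LGP2), which modulates both, had group medians of 5.18 to 5.75 and 22 to 100 reads per library. Zbp1, which binds Z-form nucleic acid and can start cell death, had group medians of 2.55 to 3.47. It was too low to pass the filter on low values in any of the 4 comparisons between groups. Counts of Dhx58 may include reads of the overlapping antisense gene Dhx58os, since the sources used here do not say whether strand was used in counting. The same holds for Irf7 (Phrf1), Irf1 (Gm17334), Usp18 (Gm44148) and Gbp2 (Mir6381). Exons of Rtp4 (Gm45338), Igtp (Irgm2), Irf9 (Rnf31), Parp14 (Gm49730) and Sp100 (n-R5s215) overlap another gene on the same strand. How shared reads were counted there is uncertain.

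Of the transcription factors, Stat2 had group medians of 9.89 to 10.02 and Irf9, its partner in ISGF3, had 8.34 to 8.50. Irf1, a factor induced most strongly by interferon gamma, had 7.95 to 8.23. Irf7, which drives transcription of the interferon alpha genes (gene ID 54123, chromosome 7, 141262706 to 141266481, minus strand, GRCm38), had 6.67 to 6.95 and a wider spread. It ran from 6.13 to 7.35 in the tamoxifen group, from 6.51 to 8.50 in the vehicle group, from 6.55 to 7.94 in the libraries labelled AKO, from 6.10 to 7.72 in WT at 4 months and from 6.52 to 7.60 in WT at 2 months, so all 5 groups overlapped.

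Of the Ifit proteins, which bind foreign RNA and block its translation, Ifit2 was the steadiest at group medians of 9.40 to 9.56, and Ifit1 lay at 6.87 to 7.20. Ifit3 and Ifit3b share sequence: 41.1% of 75-base runs of Ifit3 transcripts also occur in Ifit3b and 35.7% of those of Ifit3b in Ifit3 transcripts, so how the authors' counting divided their reads is uncertain. Isg15, a ubiquitin-like protein that is attached to other proteins, had group medians of 5.84 to 6.15. Usp18, the protease that removes it and also restrains signalling at the receptor, had 5.31 to 5.77.

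Antiviral effectors ran from Ifi27, a small membrane protein, with group medians of 10.16 to 10.48, to Mx1, a dynamin-like GTPase that traps viral particles, with 2.93 to 3.80. Ifitm3, which blocks fusion of virus with the endosome, had 8.13 to 8.53, Bst2 (tetherin), which holds budding virus at the cell surface, had 7.01 to 7.42, and Oasl2, of the oligoadenylate synthetase family, had 6.96 to 7.42. Trim30a and Rsad2 (viperin) lay between 5.96 and 6.83, Mx2 between 4.42 and 5.20, and Ifi44 between 4.44 and 5.23. The interferon-inducible GTPases, which attack the vacuoles of intracellular pathogens, were at 8.69 to 8.95 for Irgm1, 7.83 to 8.10 for Igtp, 7.30 to 7.78 for Gbp3 and 6.93 to 7.45 for Gbp2. Rtp4, a chaperone of G protein-coupled receptors, Xaf1, which promotes cell death, the ADP-ribosyltransferase Parp14 and the nuclear body protein Sp100 had group medians of 6.42 to 7.32.

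In vehicle replicate 1, 21 of the 31 genes (67.7%) were at their highest of all 49 libraries, where this library was the highest for 4.57% of the 15856 genes that passed the filter over 5 groups. All 31 lay above the median of the other 9 vehicle libraries, by a median of 1.19 log2 units and a range of 0.14 to 3.64. The median of this difference over all genes was 0.01. Of the 31, 28 lay above all 9 of them, where 11.2% of all genes past the filter did. Mx1 was at 6.34 (66 reads) in replicate 1, against a median of 2.70 and a highest value of 5.50 in the other 9 vehicle libraries. Oasl2 was at 9.29, against 6.58 to 7.59, and Ifit1 at 8.96, against 6.31 to 7.86. Irf7 was at 8.50, against 6.51 to 7.03, which is 3.24-fold over the median of the others. Isg15 was at 7.88, against 4.66 to 6.59, and Usp18 at 7.25, against 4.88 to 6.20. The GTPases Gbp2 at 8.48, Gbp3 at 8.88, Igtp at 9.04 and Irgm1 at 9.77 were each the highest of the 49 as well. Smallest among the 31 were the differences of Sp100 (0.14), Ifi27 (0.22) and Xaf1 (0.22), which ranked 18, 9 and 10 among the 49 libraries. With 1 library there is no replicate and no test of this difference.

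The height of that library went beyond the 31 genes. Of 69 other interferon-stimulated genes past the filter, 29 were at their highest of the 49 libraries in it and 43 lay above the other vehicle libraries. Gbp6 was at 8.84, against at most 7.33 in the other 48 libraries, Ifi204 at 6.32, against at most 5.59, and the chemokine Cxcl10 at 6.13, against at most 5.77. These examples were chosen after their values were seen. The receptors and kinases of the pathway did not stand apart in the same way, with 2 of 18 at their highest. Transcripts of the ligands were nearly absent from the whole series: of 21 interferon genes in the table, 16 had no read in any library, and Ifng had 15 reads in all, at most 4 in a library.

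**Figure D2:**
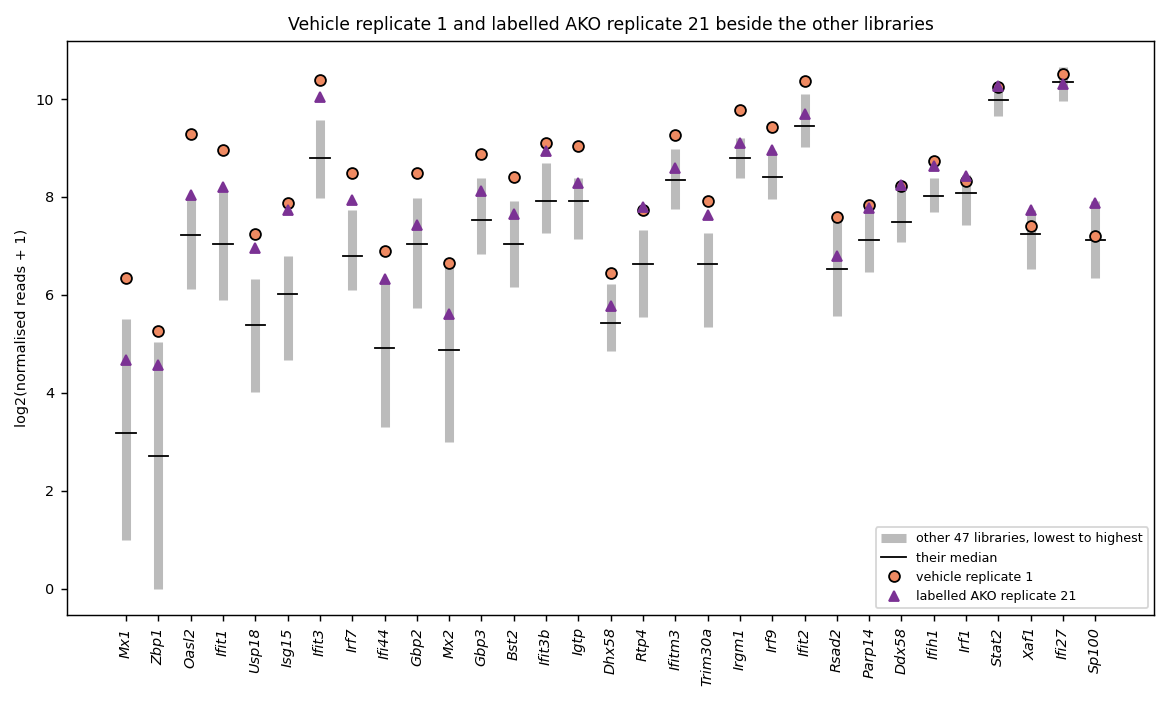
Level of each gene, as log2(normalised reads + 1), in vehicle replicate 1 (circles) and labelled AKO replicate 21 (triangles) beside the lowest to highest of the other 47 libraries (bars) and their median (lines), ordered by the difference in vehicle replicate 1. Mx1, Zbp1, Oasl2 and Ifit1 differ most in vehicle replicate 1, while Xaf1, Ifi27 and Sp100 lie within the bars.

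Some markers of other tissue and cell types in vehicle replicate 1 also stood apart from those in the other vehicle libraries. The mean level of the olfactory bulb and mucosa markers was 10.34 there, and their median lay 3.57 above that of the other vehicle libraries. Their summed level was 39613 normalised reads in it, and from 10921 to 55889 over the vehicle group, so it was not the highest. Of 12 leptomeningeal fibroblast markers, 9 lay above all other vehicle libraries, where 11.2% of all genes past the filter did. The summed level of the 12, 13536, was the highest of the vehicle group, while WT at 4 months reached 13974. Over the 49 libraries, 1 of the 12 was at its highest in vehicle replicate 1. The 13 listed markers of border macrophages, monocytes and neutrophils summed to 787, the highest of the vehicle group (373 to 787). This sum reached 927 in WT at 4 months and 861 in the tamoxifen group. Of the 9 past the filter, 4 lay above the other vehicle libraries and 0 were at their highest of the 49. Of the 13 listed lymphocyte and natural killer cell markers, Nkg7 had 30 reads and was the highest of 49, while Cd3e had 6, Ms4a1, Gzma and Ncr1 had 0, and the sum, 110, was within the range of the vehicle group (33.6 to 576). Relative to the other vehicle libraries, microglia markers lay at -0.06 and endothelial markers at -0.02. Striatal markers lay at -2.25 and oligodendrocyte markers at -0.60. The libraries with a higher mean olfactory level were all labelled AKO: replicate 14 (11.39), replicate 19 (10.99) and replicate 15 (10.37). In these the 31 genes lay at a median of -0.15, 0.20 and 0.32 from the others of their group. What part composition has in vehicle replicate 1 was not tested beyond these values.

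**Figure D3:**
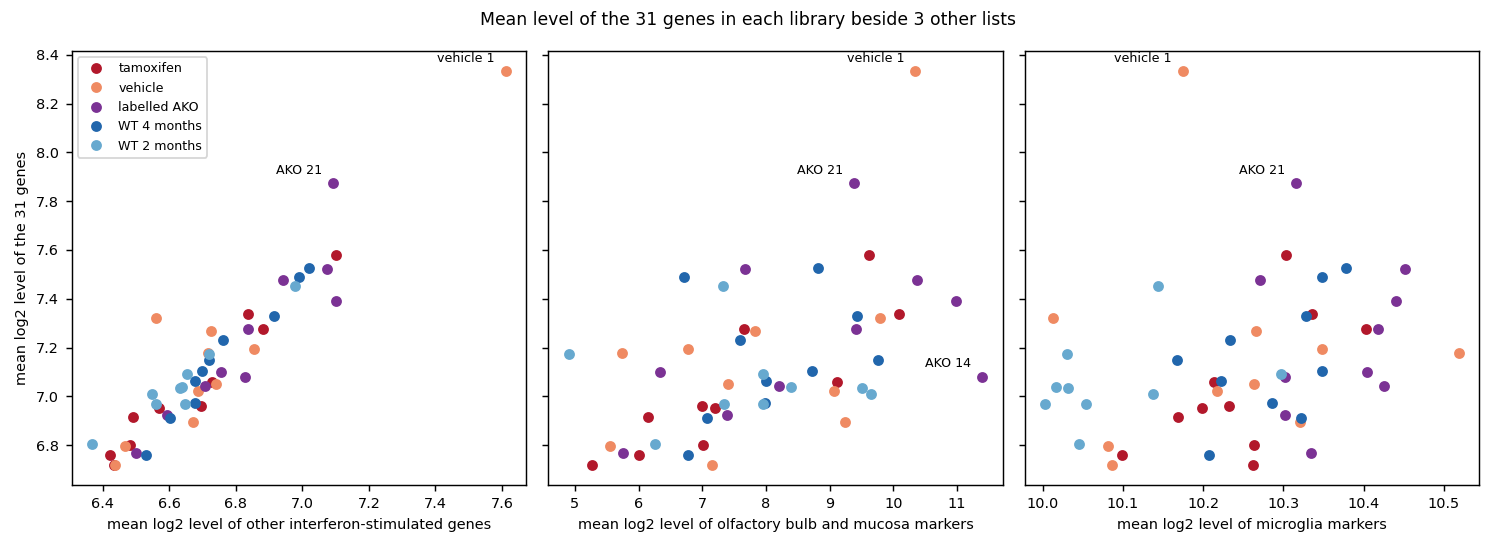
Mean log2 level of the 31 genes in each library (points, coloured by group) against the mean log2 level of other interferon-stimulated genes (left), olfactory markers (middle) and microglia markers (right). Vehicle replicate 1 and labelled AKO replicate 21 are the highest in the 31 genes, at 8.33 and 7.87. The library with the highest olfactory level, labelled AKO replicate 14, lies among the rest at 7.08. Next in olfactory level are labelled AKO replicates 19 and 15, at 7.39 and 7.48 in the 31 genes.

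A pair of further libraries was high to a smaller degree. In labelled AKO replicate 21 the 31 genes lay a median of 0.66 above the other libraries of the group. Of the 31, 21 were the highest of the group there, where 10.7% of all genes were. Isg15 was at 7.74 there, against a median of 5.98 in the other 9, and Usp18 at 6.95, against 5.76. Its olfactory (-0.06), leptomeningeal (-0.41) and microglia markers (-0.09) were at or below the group median, and 8 of 11 excitatory neuron markers lay above the rest of the group. In tamoxifen replicate 16 the median was 0.59, with 22 of 31 the highest of the group, against 9.72% of all genes. The mean level of its leptomeningeal markers, 9.48, was the highest of the tamoxifen group (median 8.81). Its olfactory markers were at 9.62 (group median 7.11, highest 10.08) and its microglia markers at 10.30 (group median 10.25). What part composition has in this library was not tested. WT replicate 36 at 2 months had 14 of 31 the highest of its group, against 7.64% of all genes, at a median of 0.33. By the median, the lowest library was labelled AKO replicate 12, at -0.41.

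The libraries labelled AKO were compared with WT at 4 months, after the same time on the diet. Given the Iapp reads, the genotype behind the label is not known. No interferon-stimulated gene passed the test in the libraries labelled AKO, with 0 of 30 tested past adjusted p 0.05 in limma, where 0.79% of 15185 genes passed (43 higher and 77 lower). At an unadjusted p below 0.05 there were 5 of 30, all higher, against a background of 14% of genes, and limma-voom gave 3 at that level and 0 past the adjusted threshold. Of the 30, 19 were higher and 11 lower, with a median difference of 0.07 against 0.01 over all genes.

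Nearest to the threshold was Rtp4, a receptor chaperone. It ran from 6.42 to 7.80 (median 6.84) among the libraries labelled AKO and from 5.54 to 7.02 (median 6.42) in WT, so the ranges overlapped. The difference was 0.55 (SE 0.17, limma adjusted p = 0.143). The transcription factor Irf1 averaged 8.19 ± 0.20 in those libraries, against 7.93 ± 0.18 in WT (SD, n = 10 each), a difference of 0.26 (SE 0.09, limma adjusted p = 0.174). For Bst2 the means were 7.35 ± 0.38 in the libraries labelled AKO, against 6.98 ± 0.23 in WT, a difference of 0.37 (SE 0.14, limma adjusted p = 0.208). Gbp3 averaged 7.81 ± 0.40 in libraries labelled AKO, against 7.47 ± 0.26 in WT, a difference of 0.34 (SE 0.14, limma adjusted p = 0.278). These 4 were the smallest p-values among the genes, and none passed. The median difference of the 30 genes was 0.01 without labelled AKO replicate 21 and 0.13 without labelled AKO replicate 12. Of 12 oligodendrocyte markers, 2 fell in the libraries labelled AKO and all 12 were lower, by a median of 0.18. Of 18 microglia markers 15 were higher and none passed. Their part in the values of the interferon-stimulated genes was not tested.

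**Figure D4:**
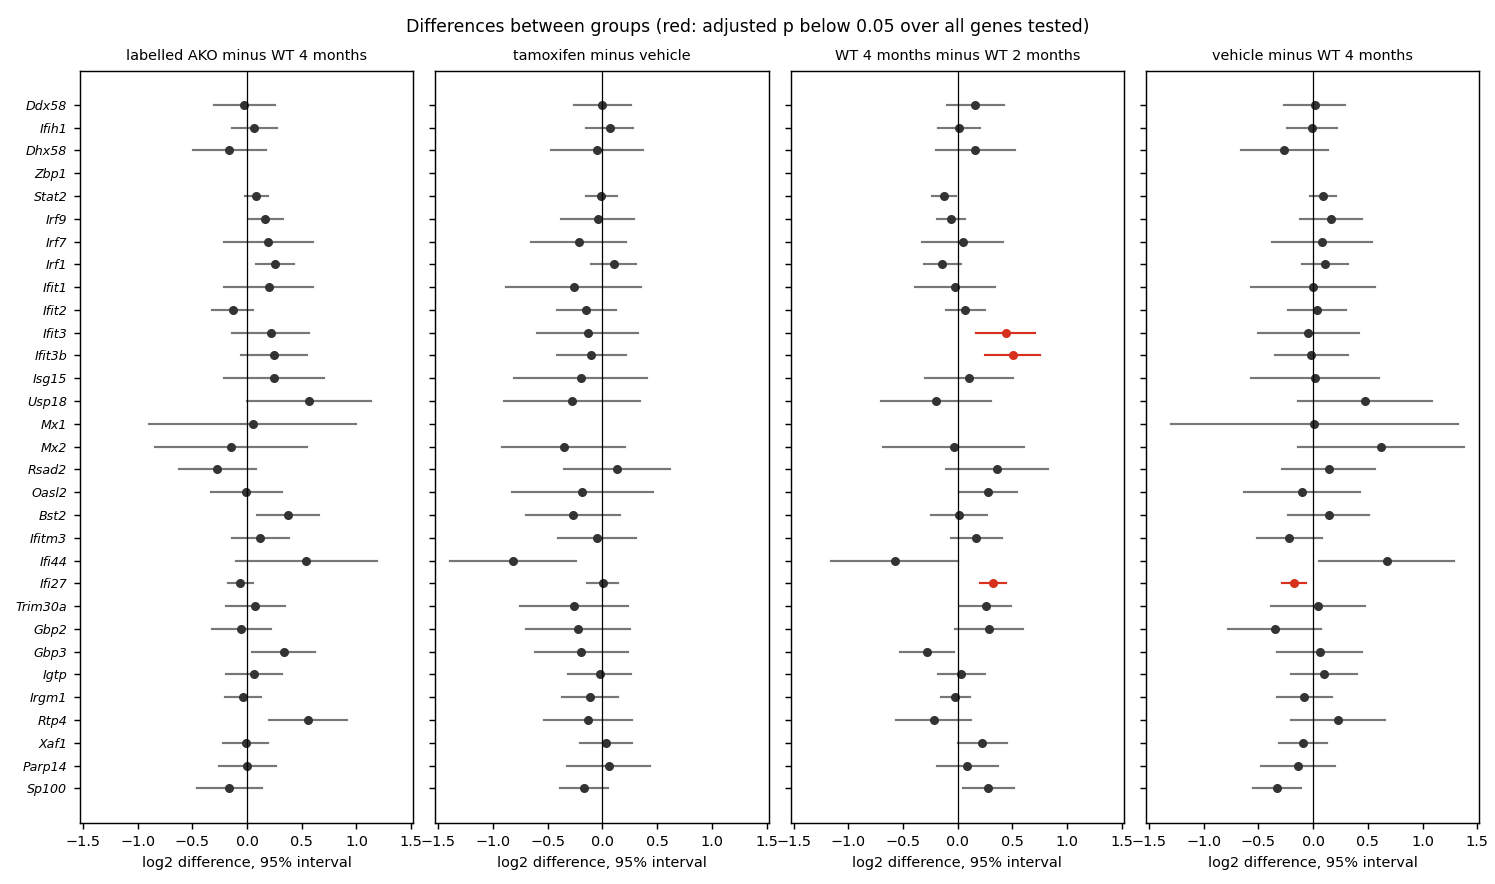
Difference between groups for each gene on the log2(normalised reads + 1) scale with its 95% interval, in 4 comparisons; red marks genes past adjusted p 0.05 over all genes tested, and genes under the filter on low values have no point. Ifi27, Ifit3b and Ifit3 are red in WT at 4 against 2 months, and Ifi27 in vehicle against WT at 4 months.

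Tamoxifen was compared with vehicle in the conditional human amylin mice. Neither the interferon-stimulated genes (0 of 29 tested) nor any other gene passed in limma (0% of 15270 genes), and limma-voom also gave 0 genes. Of the 29, only Ifi44 was at an unadjusted p below 0.05, where 3.29% of all genes were. Ifi44, an interferon-induced cytoplasmic protein, ran from 3.31 to 5.59 (median 4.44) in the tamoxifen group and from 4.52 to 6.90 (median 5.23) in the vehicle group. Its difference was -0.82 (SE 0.28, limma adjusted p = 0.9998), and -0.64 (SE 0.24) without vehicle replicate 1. Next came Sp100 at -0.17 (SE 0.11), Bst2 at -0.27 (SE 0.21) and Mx2 at -0.35 (SE 0.27), none past the threshold. Sp100 was at -0.15 (SE 0.11), Bst2 at -0.13 (SE 0.17) and Mx2 at -0.20 (SE 0.25) without vehicle replicate 1. Mx2 was also at -0.20 without vehicle replicate 3.

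With all libraries, 7 of the 29 were higher and 22 lower in the tamoxifen group, with a median difference of -0.13. That lean depended on which library was left out. Without tamoxifen replicate 16, which was also high in these genes, the median was -0.18. Without vehicle replicate 1, 15 were higher and 14 lower, and the median was 0.02. For Irf7 and Isg15, chosen after their values were seen, the 95% intervals show how far that library shifts a single gene. The interval of Irf7 was -0.65 to 0.22 with vehicle replicate 1 and -0.35 to 0.26 without it, and that of Isg15 was -0.81 to 0.41 with it and -0.50 to 0.50 without it.

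To follow time on the diet, WT mice after 4 months were set against WT mice after 2 months. Time on the diet and anything else that separates these groups, such as age, cannot be told apart. Ifi27, Ifit3b and Ifit3 rose at 4 months, 3 of 29 genes tested, where 8.77% of 15159 genes passed, so the share is close to the background. Of the 29, 19 were higher and 10 lower, with a median difference of 0.07 against 0.00 over all genes.

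Ifi27 (gene ID 52668, chromosome 12, 103434211 to 103440239, plus strand, GRCm38) ran from 10.35 to 10.66 (median 10.48) at 4 months and from 9.96 to 10.50 (median 10.16) at 2 months. A single 2-month library, replicate 37, reached into the range of the 4-month libraries. Ifi27 averaged 10.49 ± 0.10 at 4 months and 10.17 ± 0.15 at 2 months (SD, n = 10 and 9), a rise of 0.32 (SE 0.06, limma adjusted p = 0.0037). Ifi27 passed without any 1 of the 19 libraries, at 0.29 to 0.36. Ifit3b (gene ID 667370, chromosome 19, 34607970 to 34613401, plus strand, GRCm38) ran from 7.64 to 8.69 (median 7.98) at 4 months and from 7.27 to 7.92 (median 7.54) at 2 months. It rose by 0.50 (SE 0.12, limma adjusted p = 0.0162) and also passed without any 1 library, at 0.43 to 0.55. Ifit3 (gene ID 15959, chromosome 19, 34583531 to 34588731, plus strand, GRCm38) ran from 8.43 to 9.57 (median 8.85) at 4 months and from 7.99 to 8.83 (median 8.45) at 2 months. It rose by 0.44 (SE 0.13, limma adjusted p = 0.0385), but its call was lost with limma-voom (adjusted p = 0.0546). The call of Ifit3 was also lost with no filter on low values, 1 model of 49 libraries, or no trend and no robust shrinkage. It held in 9 of the 19 fits without 1 library. Ifit3 and Ifit3b share the sequence noted above, so their rises are not separate results. The next gene, Sp100, did not pass, with 7.41 ± 0.27 at 4 months and 7.13 ± 0.18 at 2 months (SD, n = 10 and 9), a difference of 0.28 (SE 0.11, limma adjusted p = 0.106). Ifit1 and Ifit2, named as members of the same family after their values were seen, differed by less than their spread, at -0.02 (SE 0.18) and 0.07 (SE 0.09). Stat2 did not pass with all libraries, at -0.13 (SE 0.05, limma adjusted p = 0.118), and passed as lower at 4 months in 2 fits, without 2-month replicate 37 (-0.15, adjusted p = 0.0476) and without 2-month replicate 40 (-0.16, adjusted p = 0.0339).

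Other genes of the pathway gave few calls in the same comparison. Of 62 other interferon-stimulated genes tested, 4 rose and 0 fell, among them Samd9l by 0.42 (SE 0.11, limma adjusted p = 0.0206), the proteasome activator subunit Psme2 by 0.20 (SE 0.06, adjusted p = 0.0303) and Tor3a by 0.26 (SE 0.08, adjusted p = 0.0461). Among 17 receptors, kinases and regulators of the pathway, the interferon gamma receptor subunit Ifngr1 rose by 0.18 (SE 0.05, limma adjusted p = 0.0468) and the phosphatase Ptpn6 by 0.37 (SE 0.09, adjusted p = 0.0170). Of 18 nucleic acid sensing genes 1 rose, Unc93b1, which carries Toll-like receptors to the endosome, by 0.21 (SE 0.06). Markers of several cell types moved with these genes: 10 of 18 microglia markers rose, as did 6 of 16 endothelial, 5 of 12 astrocyte and 2 of 12 leptomeningeal markers, while 3 of 11 excitatory neuron markers fell. The summed microglia markers ran from 28135 to 32157 normalised reads at 4 months and from 25413 to 31188 at 2 months, and none was at 0. Their part in the rises of Ifi27, Ifit3 and Ifit3b was not tested.

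**Figure D5:**
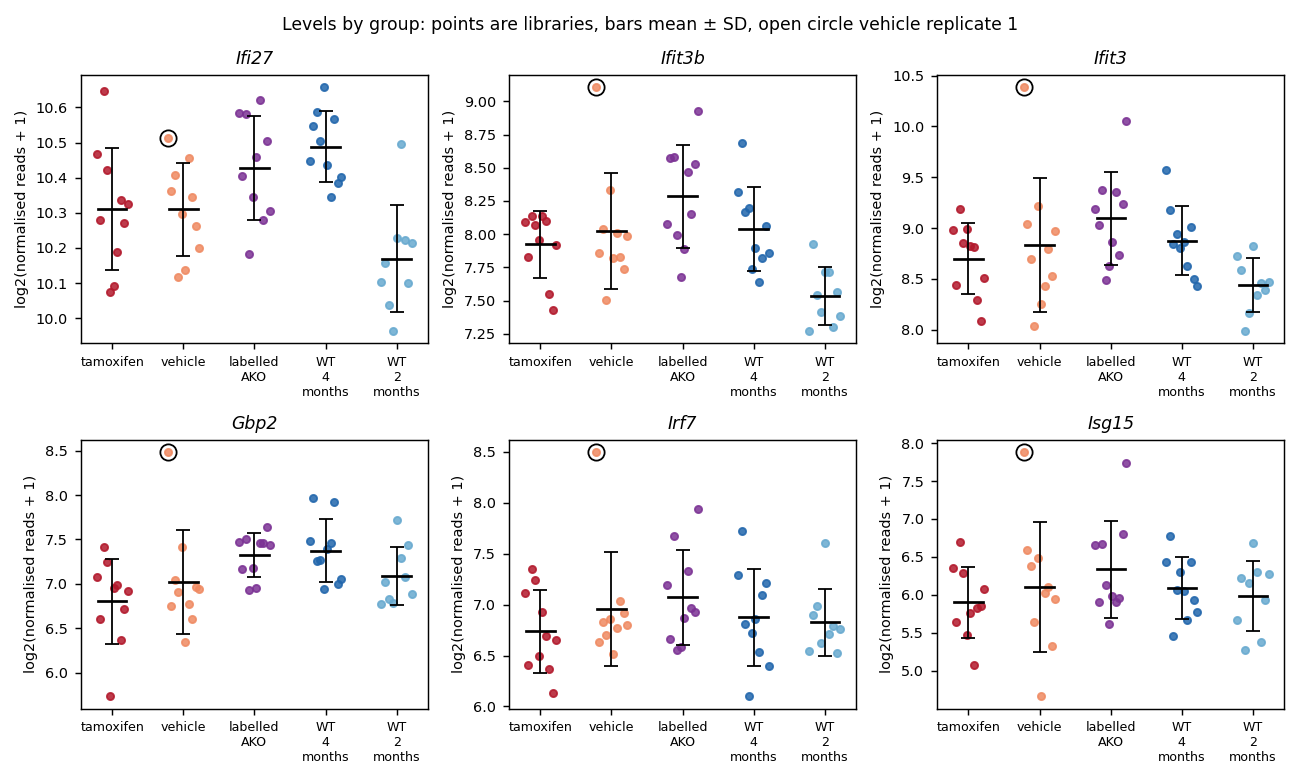
Levels of 6 genes by group as log2(normalised reads + 1); each point is a library, bars give mean ± SD, and the open circle marks vehicle replicate 1. WT at 2 months has the lowest mean in Ifi27, Ifit3b and Ifit3, and vehicle replicate 1 is the highest point in all panels but Ifi27.

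The vehicle-treated conditional human amylin mice were compared with WT at 4 months, which sets transgenic mice without induction against WT on the same time of diet and also differs by the injection. The WT libraries are the same as in both comparisons with WT at 4 months above, so these results are not independent of them. Ifi27 fell, 1 of 30 genes tested, where 6.2% of 15129 genes passed. It ran from 10.12 to 10.51 (median 10.32) in the vehicle group and from 10.35 to 10.66 (median 10.48) in WT, and fell by 0.18 (SE 0.05, limma adjusted p = 0.0464). The call is marginal: it held in 6 of 20 fits without 1 library. Sp100, at 7.08 ± 0.18 in the vehicle group and 7.41 ± 0.27 in WT (SD, n = 10 each), differed by -0.33 (SE 0.11, limma adjusted p = 0.0726) and did not pass. Ifi44 differed by 0.67 (SE 0.30, limma adjusted p = 0.194) and Gbp2 by -0.35 (SE 0.20, adjusted p = 0.345), also without passing. Leaving out vehicle replicate 1, Sp100 was at -0.34 (SE 0.11, limma adjusted p = 0.0763) and Ifi44 at 0.50 (SE 0.26, adjusted p = 0.292).

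Leaving out vehicle replicate 1 turned the lean of the list. With it, 18 of the 30 were higher and 12 lower in the vehicle group, at a median of 0.01. Without it, 8 were higher and 22 lower, at a median of -0.09, and 2 fell, where 5.59% of genes passed. Those were Ifi27, which fell by 0.20 (limma adjusted p = 0.0229), and Gbp2, a GTPase of host defence (gene ID 14469, chromosome 3, 142620602 to 142638008, plus strand, GRCm38). Gbp2 ran from 6.34 to 7.41 (median 6.91) in the other 9 vehicle libraries and from 6.95 to 7.97 (median 7.33) in WT, and fell by 0.51 without replicate 1 (limma adjusted p = 0.0443). With replicate 1 included, all 12 oligodendrocyte markers fell in the vehicle group, by a median of 0.63, as did 3 of 16 endothelial and 2 of 18 microglia markers. In that same fit, 1 of 63 other interferon-stimulated genes tested fell, Adar, the editing enzyme of double-stranded RNA, by 0.20 (SE 0.04, limma adjusted p = 0.0060). Whether composition accounts for part of these values was not tested.

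The effect in the libraries labelled AKO was also set against the effect of tamoxifen in 1 model of the 4 groups. None of the 31 genes passed (0 past adjusted p 0.05 in limma, where 0.0383% of 15665 genes passed), and limma-voom also gave 0. At an unadjusted p below 0.05 there were 4 of 31, against 5.65% of genes. They were Ifi44 at 1.36 (SE 0.43, limma adjusted p = 0.642), Rtp4 at 0.69 (SE 0.27), Bst2 at 0.64 (SE 0.25) and Gbp3 at 0.53 (SE 0.25). Without vehicle replicate 1 the list again had 0 past the threshold, with Ifi44 at 1.19 (SE 0.41), Rtp4 at 0.56 (SE 0.24), Bst2 at 0.50 (SE 0.22) and Gbp3 at 0.38 (SE 0.22).

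A test for any difference among the 5 groups gave 3 of 31 genes in limma, where 23.2% of 15856 genes passed. These were Ifi27 (adjusted p = 0.0021), Ifit3b (adjusted p = 0.0035) and Sp100 (adjusted p = 0.0207). Without vehicle replicate 1 there were 7, where 22.8% of genes passed: Ifit3b, Ifi27, Gbp2, Sp100, Ifit3, Gbp3 and Ifitm3. With that library the share lay below that of all genes, and without it near that share. In each comparison the ranges of the 2 groups overlapped for every gene of the list. How often this holds over all genes was not counted, so it is not a result about the list.

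Within groups the genes varied together. The list was chosen with earlier results of these data known, so the values below describe it and are not a test. Irf7 was taken as the point of comparison, after its values were seen, and the likeness is Pearson's r of deviations from the group mean over the 49 libraries, which share the depth and composition of each library. The median r of the other 30 genes with Irf7 was 0.60, against 0.01 over all 15855 genes, and 24 of the 30 were among its 100 nearest genes. Nearest were Oasl2 (0.77), Ifi44 (0.77), Ifit1 (0.76), Gbp3 (0.75) and Ifit3 (0.75), followed by genes outside the list such as Irgm2 (0.73). Without vehicle replicate 1 and labelled AKO replicate 21 the median r was 0.46 and 15 of the 30 were among the first 100. Over all 49 libraries the least alike were Stat2 (0.23), Irf1 (0.31) and Xaf1 (0.32). Without vehicle replicate 1 and labelled AKO replicate 21, Stat2 (-0.06), Irf1 (0.17) and Irgm1 (0.18) were the lowest, and Xaf1 was at 0.22.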

How the data were processed

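RNA from frontal cortex was sequenced after an Illumina TruSeq Stranded mRNA preparation, per the labels' protocols. The authors deposited log2 values for 24495 genes in 50 value columns, 1 of which matched no sample and was not used. Aligner, counter, build and normalization: not given in the sources used here. Up to 200 reads, at least 99.92% of values per library lay within 0.1 of whole reads once un-logged, in steps within 0.0411% of median-of-ratios size factors. The design assumed counts; as the unit was log2, limma 3.58.1 (R 4.3.3; trend, robust, Benjamini-Hochberg, two-sided) was run on the deposited values of the groups compared, over all genes that held 10 reads (scaled to the median depth) in a number of libraries equal to the smaller group's, and 15 in total. The test was tried on simulated data first. limma-voom on recovered reads, other filters, offsets and scalings, and leaving out each library were alternatives. Shared title numbers did not pair libraries (correlations -0.29 to 0.14). The closest replicates differed by a chi-square of 6.44 per gene, so none was a duplicate. 7 genes without whole reads were left out. Positions are GENCODE M21. Genes named in a comparison were all past adjusted p 0.05, or the 4 with the smallest p; others are said to be chosen after their values were seen, or gained a call when 1 library was left out. Members and lists were chosen with earlier results of these data known.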

Additional observations from a re-analysis of the deposited data

Results flagged for a closer look

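Each gene was examined in each group for a highest or lowest library set apart by a gap that is large against the range of the group. That gave 20 of 155 gene and group pairs, where chance flags about 1 in 20. In vehicle replicate 1, 12 genes were high: Ifih1 (8.73), Dhx58 (6.44), Irf7 (8.50), Ifit3 (10.39), Ifit3b (9.11), Oasl2 (9.29), Bst2 (8.41), Ifitm3 (9.26), Ifi44 (6.90), Gbp2 (8.48), Gbp3 (8.88) and Irgm1 (9.77), as log2(normalised reads + 1). The nearest other vehicle library was at 7.03 for Irf7 and 7.59 for Oasl2. In WT at 2 months, Irf7 (7.60) and Sp100 (7.57) were high in replicate 36 and Ifi27 (10.50) in replicate 37, while Irf9 (8.16) and Irf1 (7.70) were low in replicate 34. Trim30a was high in labelled AKO replicate 21 (7.63). Stat2 was low in tamoxifen replicate 9 (9.65) and Irf1 in vehicle replicate 3 (7.42). The genes vary together, so these are not separate observations.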

How the results depend on the processing

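No result changed direction among those called, and of the differences of the called or 4 top-ranked genes of each comparison 408 kept their side of the threshold, 32 lost it (all of Ifit3 at 4 against 2 months or Ifi27 in vehicle against WT) and 1 gained it (Gbp2 in vehicle against WT, without vehicle replicate 1). Outside these genes, Stat2 alone of the list gained a call, as lower at 4 against 2 months without 2-month replicate 37 or 40. In the libraries labelled AKO, the replicate block over the shared title numbers gave 12 genes called and 0 of the interferon-stimulated genes, against 13 and 0 without the block on the same libraries, and no labelled AKO library correlated best with the WT library of its own number. The model of all 49 libraries gave 50 genes. The same model gave 875 genes for WT at 4 against 2 months. Ifi27 in vehicle against WT left 0 called genes of the list with no filter on low values, scaling to library totals, 1 model of 49 libraries, or no trend and no robust shrinkage. The cause was not tested. Leaving out 1 library at a time gave 62 (without labelled AKO replicate 8) to 206 (without replicate 15) genes called for the libraries labelled AKO, and a median difference of the list of 0.01 to 0.13. For tamoxifen against vehicle there were 0 genes throughout, and the median ran from -0.18 (without tamoxifen replicate 16) to 0.02 (without vehicle replicate 1). For WT at 4 against 2 months there were 772 (without 4-month replicate 12) to 2846 (without 2-month replicate 37) genes, 2 to 4 of the list, and a median of 0.04 to 0.13. For vehicle against WT there were 651 (without vehicle replicate 40) to 1494 (without vehicle replicate 3) genes, 0 to 2 of the list, and a median of -0.09 to 0.08. Without vehicle replicate 1, 7 genes of the list differed among the 5 groups. That omission in the tests over 4 and 5 groups, and the shared numbers without the block, were chosen after seeing the data. Genes with few reads, such as Zbp1, Mx1 and Ifi44, have wide intervals at this depth.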
